A study of Mus musculus with 2 samples.

Results

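The genes described here encode, in the nucleus, the subunits of respiratory complexes II, III and IV, of ATP synthase (complex V) and of cytochrome c. They were taken by name: Sdha, Sdhb, Sdhc, Sdhd, Cyc1, Cycs and every protein-coding gene of GENCODE vM21 whose symbol begins with Uqcr, Cox4, Cox5, Cox6, Cox7, Cox8 or Atp5. The rule used no measured value and gave 50 gene IDs with 49 symbols, out of 14875 genes with an assembled locus in at least 1 library. Atp5o has more than 1 ID. Of the 50, 43 could be given a value.

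Wild-type (WT) mouse bone marrow cells were grown either with M-CSF only (library M) or with RANKL as well (library MR), and their RNA was sequenced to follow the effect of RANKL during osteoclast formation. M-CSF is the growth factor that keeps macrophages and their precursors alive, and RANKL is the ligand that turns these precursors into osteoclasts, the multinucleated cells that resorb bone. The dose of M-CSF was 20 ng/mL in both and that of RANKL 100 ng/mL, the latter for 2 days by the sample labels and 3 days by the methods of the study. There is 1 library per culture, so that no difference below has a replicate check and no test was made. Sex and age of the mice are not given in the sources used here, and the strain of the marrow donors is not stated beside the study's use of C57BL/6J mice for its knockout line. In such bulk RNA, fewer cells of a type and less RNA per cell cannot be told apart.

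The respiratory chain lies in the inner mitochondrial membrane. Complex II, which is also the succinate dehydrogenase of the Krebs cycle, passes electrons to coenzyme Q, complex III passes them on to cytochrome c, and complex IV hands them to oxygen. Complexes III and IV pump protons, and ATP synthase lets the protons flow back through a rotating ring and makes ATP. Complex II and cytochrome c are encoded in the nucleus alone, whereas complexes III and IV and ATP synthase also hold subunits encoded in mitochondrial DNA. Osteoclasts are known for their many mitochondria, since acid secretion onto bone consumes ATP.

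Levels are given in TPM, the number of transcripts of a gene in 1000000, a measure per transcript length that was summed over the assembled loci of a gene. The log2 ratio is that of MR to M with 1 TPM added to both, so that it understates the difference of genes with low values. The libraries held 3.63 Gb of aligned bases in M and 2.98 Gb in MR. All 8 osteoclast marker genes were higher in MR, with a summed level of 126 TPM in M and 24790 TPM in MR, and Oscar, Dcstamp and Calcr were at 0 in M. Of 6 macrophage markers 5 were lower in MR, with sums of 5299 and 3279 TPM, and the neutrophil markers summed to 1266 and 897 TPM. The erythroid, lymphoid, stromal, and mast cell and basophil lists each summed to at most 20.8 TPM in either library. The part of these shifts in cell type in the values below was not tested.

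Of the 43 genes with a value, 42 were higher in MR and 1 was lower. The log2 ratio was above 1, that is more than 2-fold, for 37 of them (86.0%), against 21.0% of all 13382 genes tested. It was below -1 for 0 of them, against 13.0% of all genes tested. The median log2 ratio of the 43 genes was 1.36, with a 95% order-statistic interval over genes of 1.21 to 1.57, and that of all genes was 0.21. Their summed level was 10119 TPM in M and 26896 TPM in MR, which is 1.01% and 2.69% of the TPM of the assembled loci, a 2.66-fold difference.

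**Figure D1:**
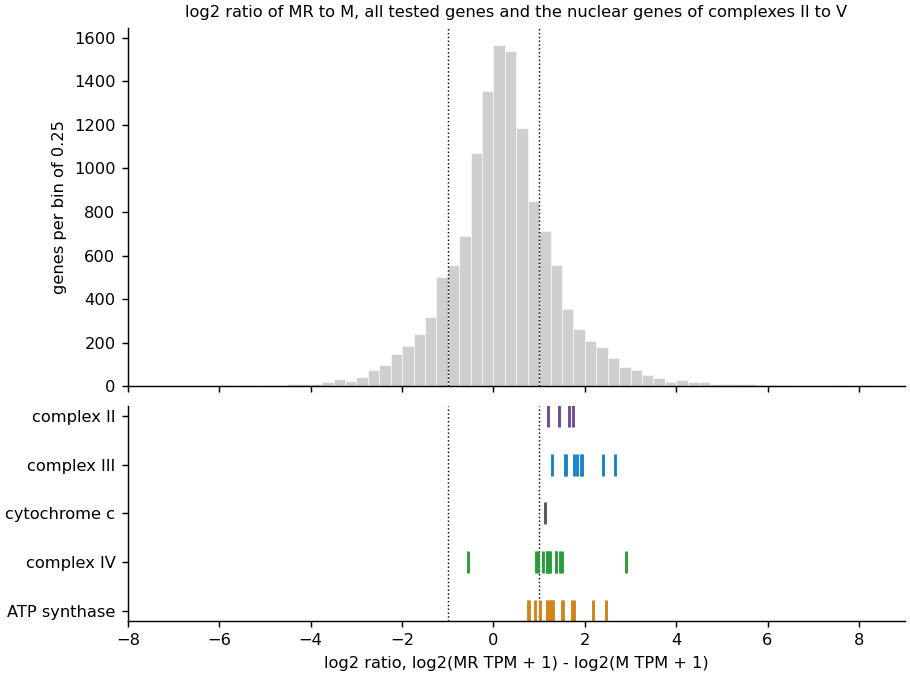
Upper panel: number of genes per bin of 0.25 in the log2 ratio of MR to M, for all 13382 genes tested. Lower panel: 1 stroke for each nuclear gene of complexes II to V with a value, with dotted lines at -1 and 1. Of the strokes 37 lie past 1 and 0 below -1, and that of Cox6b2 alone lies left of 0.

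The rise was shared by nearly all abundant members rather than carried by a few. There were 40 genes with at least 50 TPM in M, and all 40 were higher in MR, with log2 ratios from 0.77 to 2.65. Their counting intervals, taken from about 190 to 5119 read pairs per gene in M and 541 to 13332 in MR, all lay above 0, and reached at most 0.22 to either side on the log2 scale. These intervals cover counting error in these libraries only, and not the spread between cultures.

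**Figure D2:**
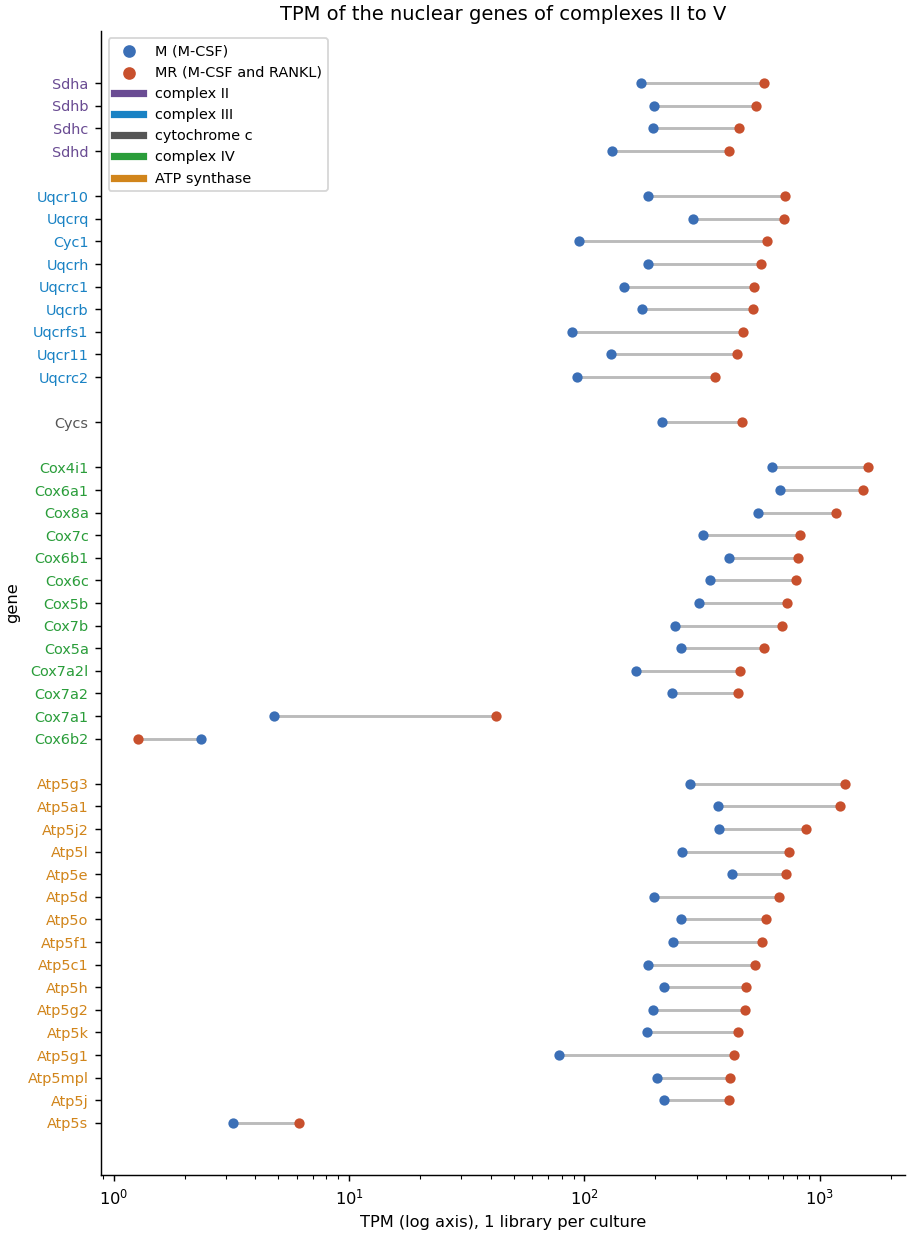
TPM in M (blue) and MR (red) on a log axis for the 43 genes with a value, by complex and, within a complex, by the level in MR. The red point lies right of the blue point in every gene but Cox6b2, and the distance is widest for Cox7a1, Cyc1, Atp5g1 and Uqcrfs1.

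All 4 genes of complex II were higher, with a median log2 ratio of 1.55. Sdha, the flavoprotein that oxidises succinate, had 174 TPM in M and 580 TPM in MR, a log2 ratio of 1.73. Sdhb, the iron-sulfur subunit that carries the electrons onward, had 197 and 538 TPM, a log2 ratio of 1.44. The membrane anchors that hold the coenzyme Q site had lower levels than both of them in MR. Sdhc had 196 and 451 TPM, a log2 ratio of 1.20, from a locus that reached 171153745 in both libraries, beyond the annotated gene at 171150603. Sdhd had 130 and 411 TPM, a log2 ratio of 1.65. The subunits thus lay within 411 and 580 TPM in MR.

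Complex III had the highest median log2 ratio of the complexes, 1.83, with an order-statistic interval of 1.57 to 2.40 and all 9 genes above 1. The largest values in it by TPM belonged to the catalytic subunits encoded in the nucleus. By coverage per aligned Gb, Uqcrfs1 had 2.33 and Cyc1 2.24, with the small subunit Uqcr11 beside them at 2.23. The commonest quotient of coverage and FPKM was 3.63 in M and 2.98 in MR. Uqcr11 in M (coverage 151, FPKM 60.2) and Cyc1 in MR (coverage 629, FPKM 266) fell below it. The coverage ratios of Uqcr11 and Cyc1 thus do not compare like read depths. Cyc1, the cytochrome c1 that reduces cytochrome c, had 94.5 TPM in M and 598 TPM in MR, a log2 ratio of 2.65. Most of this came from 1 locus, at 91.9 and 584 TPM. The remainder, 2.52 and 14.7 TPM, came from a locus at chr15, 76341652 to 76343658 (mm10). That locus lies mostly upstream of the gene, whose annotated start is 76343523, and overlaps its first bases. Uqcrfs1, the Rieske iron-sulfur protein, had 88.6 and 472 TPM, a log2 ratio of 2.40. Both were among the least abundant members in M and reached the level of the other complex III genes in MR.

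The core proteins Uqcrc1 and Uqcrc2 frame the matrix side of complex III. Uqcrc1 had 147 and 526 TPM, a log2 ratio of 1.83. Uqcrc2 had 92.7 and 358 TPM, a log2 ratio of 1.94. Uqcr10, a small membrane subunit, was close to them at 187 and 710 TPM, a log2 ratio of 1.92. The other small subunits followed, with Uqcr11 at a log2 ratio of 1.77, the hinge protein Uqcrh at 1.59, Uqcrb at 1.57 and Uqcrq at 1.29. Uqcrq was the most abundant complex III gene in M, at 288 TPM, and had the lowest ratio of the 9. Across complex III the SD of the log2 TPM was 0.58 in M but 0.32 in MR, where its genes lay closer together.

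Cycs, the cytochrome c that shuttles electrons from complex III to complex IV, had 214 TPM in M and 468 TPM in MR. Its log2 ratio of 1.13 was below that of each of the 9 complex III genes.

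Complex IV had a median log2 ratio of 1.21 over 13 genes with a value, with 12 higher and 10 above 1. Its 10 subunits found in most tissues differed little among themselves, from 0.93 for Cox7a2 to 1.51 for Cox7b, with a median of 1.19. These included the most abundant members in either library. Cox4i1, the largest subunit that the nucleus supplies, had 625 TPM in M and 1604 TPM in MR, a log2 ratio of 1.36. Cox6a1, the form of its subunit found in most tissues, had 679 and 1530 TPM, a log2 ratio of 1.17. Cox8a had 546 and 1167 TPM, a log2 ratio of 1.09. These 3 genes stood above every other complex IV gene in both libraries. The assembled locus of Cox8a ran from 7213900 to 7218419 in both, beyond the annotated gene (7215153 to 7217616) at either end. The part of other transcripts in its values was not tested. Cox7a2 (236 and 450 TPM) and Cox6b1 (411 and 809 TPM, a log2 ratio of 0.98) were the ubiquitous subunits that did not pass 1.

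The tissue isoforms of complex IV were low or had no value. Cox7a1, the form that predominates in heart and skeletal muscle, had 4.80 TPM in M and 42.1 TPM in MR, a log2 ratio of 2.90 that was the largest of all members by TPM, while by coverage per aligned Gb Atp5g3 was larger (3.07 against 2.74). It rests on about 11 and 73 read pairs, with a counting interval of 2.23 to 4.03 for the ratio without added TPM. Ckm, the muscle creatine kinase, was the 1 of 5 muscle markers with a locus, at 1.15 and 10.02 TPM. Cox6b2, a testis form, was the 1 member lower in MR, at 2.34 and 1.26 TPM, with a log2 ratio of -0.56 from about 5 and 2 read pairs and a counting interval of -3.05 to 1.27. Its direction was not detectable at this depth. Cox4i2, a form of lung and of low oxygen, had 0.95 TPM in M and no locus in MR and fell under the minimum of 1 TPM. Cox7b2, Cox8b and Cox8c had no locus in either library. Cox6a2, the muscle form of Cox6a1, had 3.31 TPM in MR and in M lay inside a locus given to another gene.

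Cox7a2l, which resembles Cox7a2 and joins complexes III and IV into supercomplexes, had 166 TPM in M and 459 TPM in MR, a log2 ratio of 1.46. Among the Cox7a genes, Cox7a2 held 58.0% of the summed 406 TPM in M and 47.3% of the summed 952 TPM in MR. Cox7a2l went from 40.9% to 48.2%, and Cox7a1 from 1.18% to 4.43%.

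All 16 genes of ATP synthase with a value were higher in MR, 13 of them above 1, and the median of their log2 ratios was 1.26. In the catalytic head and central stalk, Atp5a1, the alpha subunit, had 370 TPM in M and 1221 TPM in MR, a log2 ratio of 1.72. Atp5d, the delta subunit, had 197 and 669 TPM, a log2 ratio of 1.76. Atp5c1, the gamma subunit and rotor shaft, had 186 and 528 TPM, a log2 ratio of 1.51. Atp5e, the epsilon subunit and neighbour of delta in the stalk, stood apart from them at 423 and 722 TPM, a log2 ratio of 0.77 and the lowest among the 40 abundant members. Atp5b, the catalytic beta subunit (chr10, 128083273 to 128090391, plus strand), was given no value, since in both libraries it lay inside 1 long locus shared with Baz2a. That locus had 109 TPM in M and 393 TPM in MR.

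The peripheral stalk, which keeps the head from turning, had a median log2 ratio of 1.18 in 4 genes. Its members had almost the same level in M, from 217 to 257 TPM. Atp5f1 (b) had a log2 ratio of 1.25, Atp5o (OSCP) of 1.20, Atp5h (d) of 1.16 and Atp5j of 0.91. The small membrane subunits Atp5l, Atp5k, Atp5j2 and Atp5mpl lay between 1.03 and 1.52, with Atp5l at 259 and 742 TPM. Atp5s, factor B, was low at 3.21 and 6.11 TPM, from about 6 and 9 read pairs, and its counting interval of -0.50 to 2.36 holds 0.

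The c-ring, through which protons turn the rotor, had the largest fold difference in summed TPM of the ATP synthase groups. Atp5g1, Atp5g2 and Atp5g3 summed to 555 TPM in M and 2188 TPM in MR, a 3.94-fold difference. They lie on different chromosomes (Atp5g1 at chr11, 96068852 to 96075670, Atp5g2 at chr15, 102662864 to 102672352, Atp5g3 at chr2, 73908447 to 73911326, all on the minus strand of GRCm38). Their precursors differ in the peptide that targets them to mitochondria, and their last 75 codons translate to 1 and the same protein. These 225 bases are shown because they tell apart which transcript supplies the same subunit. They run 5′ to 3′ in the transcripts of GENCODE vM21, with the stop codon left off and with capitals where the base is not the same in all 3 genes.
Atp5g1: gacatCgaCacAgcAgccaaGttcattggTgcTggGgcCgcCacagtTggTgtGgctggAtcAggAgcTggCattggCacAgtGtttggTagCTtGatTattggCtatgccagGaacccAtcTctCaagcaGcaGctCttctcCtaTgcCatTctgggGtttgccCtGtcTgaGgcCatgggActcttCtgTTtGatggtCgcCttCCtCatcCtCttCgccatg
Atp5g2: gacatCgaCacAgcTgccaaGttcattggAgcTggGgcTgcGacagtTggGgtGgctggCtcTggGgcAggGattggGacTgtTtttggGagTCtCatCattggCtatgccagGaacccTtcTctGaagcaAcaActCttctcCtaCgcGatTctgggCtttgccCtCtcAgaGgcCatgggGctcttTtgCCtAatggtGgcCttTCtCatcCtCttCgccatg
Atp5g3: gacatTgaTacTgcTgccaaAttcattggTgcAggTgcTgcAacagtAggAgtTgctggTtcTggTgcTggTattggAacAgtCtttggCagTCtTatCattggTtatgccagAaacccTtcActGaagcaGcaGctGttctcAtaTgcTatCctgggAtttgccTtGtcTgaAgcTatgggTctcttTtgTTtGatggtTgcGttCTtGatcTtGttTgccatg
The genes differed at 57 of the 225 positions (25.3%), and no run longer than 8 bases was shared by all 3. Atp5g1 and Atp5g2 differed at 34 positions, Atp5g1 and Atp5g3 at 45, and Atp5g2 and Atp5g3 at 48.

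Atp5g3 had 282 TPM in M and 1276 TPM in MR, a log2 ratio of 2.17. Atp5g1 had 77.8 and 432 TPM, a log2 ratio of 2.46. Atp5g2 had 195 and 480 TPM, a log2 ratio of 1.30. By TPM, Atp5g3 was the most abundant of them in both libraries, and its share of the sum went from 50.9% to 58.3%. The share of Atp5g1 went from 14.0% to 19.8% and that of Atp5g2 from 35.1% to 21.9%. By the listed coverage, a read depth per base, Atp5g2 was the highest of them in M, and the shares went from 34.3% to 61.9% for Atp5g3, from 18.7% to 19.98% for Atp5g1 and from 47.0% to 18.1% for Atp5g2. Per aligned Gb of coverage the log2 ratios were 3.07 for Atp5g3, 2.30 for Atp5g1 and 0.86 for Atp5g2, so that Atp5g3 and Atp5g1 changed places and Atp5g2 no longer passed 1. The assembled locus of Atp5g3 reached 73912449 in M, beyond the annotated gene at 73911326, and 73911315 in MR. Its listed coverages thus come from unlike assembled loci and are not like read depths. Atp5g2 in MR (coverage 491, FPKM 213) fell below the commonest quotient of coverage and FPKM, 2.98. Its coverage ratio does not compare like read depths either. The part of this in the shares by coverage was not tested.

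Processed pseudogenes limit how exactly these transcripts can be counted. Among annotated pseudogenes, 18 with a locus matched 12 of the members over at least 100 bases at 90% identity or more, with summed levels of 292 TPM in M and 802 TPM in MR. Gm10039, 99.8% identical to Atp5g1, had 78.9 and 183 TPM and so was listed as high as Atp5g1 itself in M. Gm10175 and Gm10231, 100% identical to Atp5g2 over the matched bases, had 43.7 and 88.3 TPM, and 0 and 81.1 TPM. Gm10221, 100% identical to Atp5l, had 43.3 and 156 TPM. With the matching pseudogenes added, the log2 ratio was 1.95 for Atp5g1, 1.44 for Atp5g2 and 1.58 for Atp5l. The shares of the c-ring were then 23.3% and 24.3% for Atp5g1 and 35.2% and 25.5% for Atp5g2, so that the gain in the share of Atp5g1 was nearly gone and the drop of Atp5g2 remained.

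**Figure D3:**
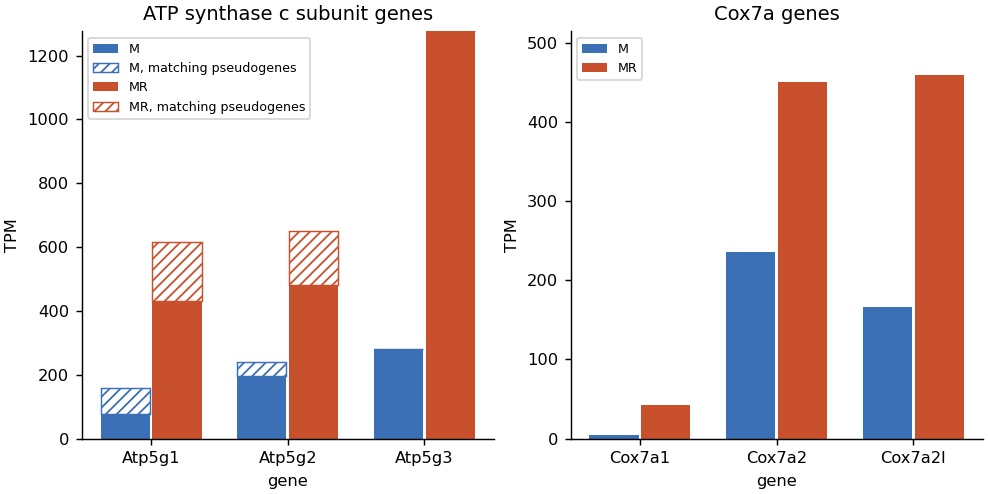
TPM of the c-ring genes (left) and the Cox7a genes (right) in M (blue) and MR (red), 1 library each, with axes from 0. Hatched parts are pseudogenes that match Atp5g1 or Atp5g2, and they add 80.9 TPM to Atp5g1 in M, more than its own 77.8.

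The abundant members were more alike in MR than in M. Among the 40 genes, levels ran from 77.8 to 679 TPM in M, an 8.73-fold range, and from 358 to 1604 TPM in MR, a 4.48-fold range. The SD of the log2 TPM was 0.72 in M and 0.54 in MR. It was lower in MR in complex II (0.28 and 0.23), complex III (0.58 and 0.32), complex IV (0.64 and 0.62) and ATP synthase (0.58 and 0.53). Within these, it was higher in MR for the peripheral stalk (0.12 and 0.24) and the small membrane subunits (0.45 and 0.53). The same held for the common complex IV subunits (0.57 and 0.58) and the catalytic subunits of complex III (0.07 and 0.24). The 10 genes lowest in M had a median log2 ratio of 1.80 (from 1.46 to 2.65) and the 10 highest one of 1.22 (from 0.77 to 1.72). Since the level in M enters both the order and the ratio, this is a description of these libraries. The order of the genes was largely kept, with a Pearson r of 0.80 between the log2 TPM of the libraries across genes, which are not independent replicates. Among all genes tested, 11 of the 40 were in the 500 highest in M and all 40 in MR.

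**Figure D4:**
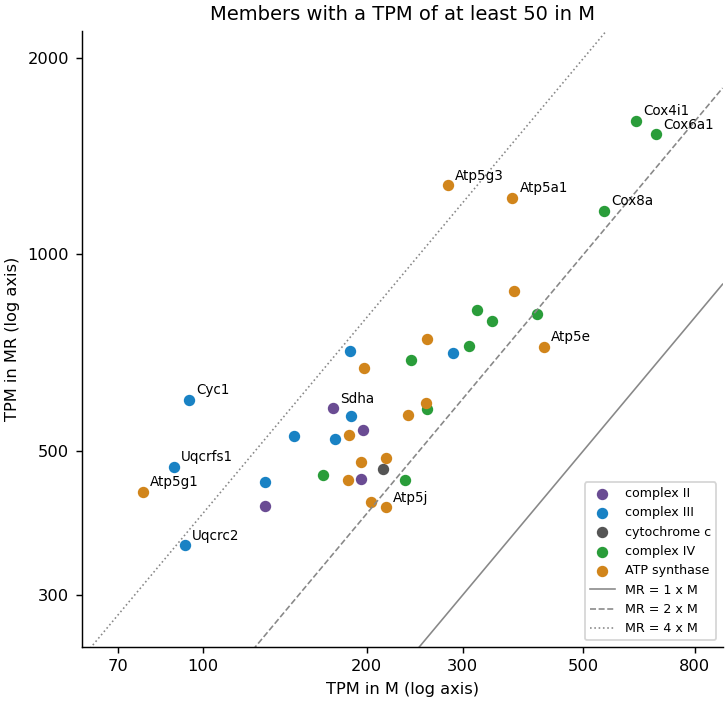
TPM in MR against TPM in M, both on log axes, for the 40 members with at least 50 TPM in M, coloured by complex, with lines where MR is 1, 2 and 4 times M. All points lie above the line of equal levels, Cyc1, Uqcrfs1, Atp5g1 and Atp5g3 lie above the line of 4 times, and Atp5e, Atp5j, Cox7a2 and Cox6b1 lie below that of 2 times.

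The partners encoded in mitochondrial DNA were higher as well in the MR library in 6 of 6 genes, and the median of their log2 ratios was 2.18. mt-Cytb, the cytochrome b of complex III, had 609 TPM in M and 5123 TPM in MR, an 8.42-fold difference (log2 ratio 3.07), beside a 3.53-fold difference in the sum of the 9 nuclear genes of complex III. For complex IV, mt-Co1 had 3944 and 8542 TPM, a log2 ratio of 1.11, and the sum of mt-Co1, mt-Co2 and mt-Co3 differed 2.86-fold beside 2.34-fold for the nuclear genes. For ATP synthase, mt-Atp6 and mt-Atp8, whose reads cannot be told apart where the genes overlap, summed to 1742 and 7876 TPM, a 4.52-fold difference beside 2.68-fold for the nuclear genes. In each of these complexes the mitochondrial sum was thus the one with the larger fold.

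Nuclear complex I, the NADH dehydrogenase that feeds the same chain, served as the nearest comparison. All 36 of its 38 genes with a value were higher in MR and 21 were above 1, against 21.0% of all genes tested. Their median was 1.05 on the log2 scale (interval from 0.91 to 1.38). The list holds Ndufa4, which is now placed with complex IV, and without it 35 of 35 were higher, 20 were above 1 and the median was 1.04. Its values ran from 0.08 for Ndufa2 to 2.15 for Ndufs1. The interval overlaps that of the members of complexes II to V, but both run over genes of the same libraries, which are not replicates of the cultures. The overlap thus does not settle whether the lists differ, and no test of the difference can be made with 1 library per culture.

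The factors that build the complexes had lower median ratios than the subunits. Of 21 complex IV assembly genes with a value, 16 were higher and 5 lower, 6 were above 1, and the median log2 ratio was 0.36. Cox10, which makes heme A precursor for the complex, had 11.2 and 33.9 TPM, a log2 ratio of 1.52. Coa6, a copper factor, had 25.0 and 18.2 TPM, a log2 ratio of -0.44. Of 10 assembly genes for complexes II and III, 8 were higher and 4 above 1, with a median of 0.79. Of 5 for ATP synthase, 3 were higher, with a median of 0.84. Among all genes tested, 21.0% were above 1 and the median was 0.21, so that the complex IV assembly genes lay near all genes. Their levels were lower too, with a median of 33.4 TPM in M for complex IV assembly against 308 TPM for complex IV.

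Among 13 genes for coenzyme Q, the carrier between complexes II and III, 11 were higher and 6 were above 1, with a median of 0.80. For all genes tested the share above 1 was 21.0% and the median 0.21. Coq8a, an atypical kinase of coenzyme Q synthesis, was far from the others at 4.55 TPM in M and 397 TPM in MR, a log2 ratio of 6.16. Coq2, which attaches the side chain, had 48.2 and 27.5 TPM, a log2 ratio of -0.79. The carriers that serve ATP synthase were higher in 3 of 3 genes with a value. Slc25a4 and Slc25a5, which exchange ADP for ATP, had log2 ratios of 2.27 and 1.82, and the phosphate carrier Slc25a3 had 1.20.

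**Figure D5:**
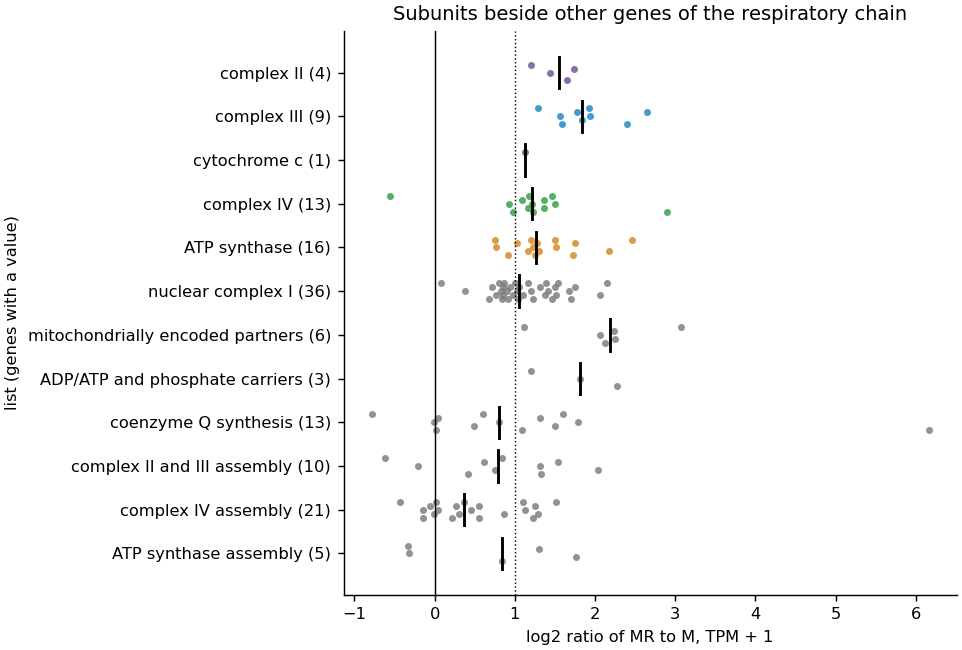
Log2 ratio of MR to M for each gene with a value (points) by complex and by related list, with the median of each list as a black bar, lines at 0 and 1, and the number of genes in brackets. Complex III has the highest median of the nuclear complexes at 1.83, and the complex IV assembly genes have the lowest of the lists at 0.36.

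Promoters of respiratory genes are known for sites of the factors NRF1 and GABP, an ETS factor, and the RefSeq promoter windows (GRCm38.p6, 250 bases before to 50 bases after the start) held 33 of the 43 genes with a value, Atp5f1 among them under the name Atp5pb. The NRF1 core CGCNTGCG, searched on both strands like the others, was in 16 of the 33 (48.5%), against 9.22% of all genes in the table and 18.9% of the genes tested. The ETS core CGGAAG was in 19 (57.6%), against 18.8% and 34.9%. The Sp1 box GGGCGG was in 12 (36.4%), against 38.2% and 66.9%. The YY1 motif AAGATGGC was in 3 (9.09%, against 3.19% and 5.37%) and the estrogen-related receptor motif AAGGTCA in 5 (15.2%, against 5.38% and 3.96%). At least 1 of the NRF1, ETS and YY1 motifs was in 26 of the 33. The share of all promoters that hold any of these was not computed, so that this count has no background beside it.

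Members with the NRF1 core had a median log2 ratio of 1.51 (16 genes, from 0.91 to 2.17) and those without it one of 1.25 (17 genes, from -0.56 to 2.90). The ranges overlap. The highest ratio with the core, 2.17, was that of Atp5g3. The stretches below are examples and do not stand for these medians. Atp5l and Cox6a1, with log2 ratios of 1.52 and 1.17, come from only 3 members whose printable stretch holds the NRF1 core. Cox7a1 and Atp5g1, with the largest ratios by TPM among members that have 1 promoter window, hold none of the 5 motifs in these stretches. They run 5′ to 3′ on the strand of the gene, end before the annotated exons, and have the motif matches in capitals.
Atp5l, chr9:44920752-44920992, minus strand: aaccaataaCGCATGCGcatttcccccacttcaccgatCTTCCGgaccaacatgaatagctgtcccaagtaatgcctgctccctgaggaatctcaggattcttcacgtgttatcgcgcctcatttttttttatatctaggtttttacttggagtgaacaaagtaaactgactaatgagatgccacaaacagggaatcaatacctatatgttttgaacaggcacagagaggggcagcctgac
Cox6a1, chr5:115348982-115349129, minus strand: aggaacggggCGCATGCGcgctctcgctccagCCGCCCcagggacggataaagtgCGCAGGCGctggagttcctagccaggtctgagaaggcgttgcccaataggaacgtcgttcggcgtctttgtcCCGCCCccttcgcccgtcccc
Cox7a1, chr7:30183921-30184143, plus strand: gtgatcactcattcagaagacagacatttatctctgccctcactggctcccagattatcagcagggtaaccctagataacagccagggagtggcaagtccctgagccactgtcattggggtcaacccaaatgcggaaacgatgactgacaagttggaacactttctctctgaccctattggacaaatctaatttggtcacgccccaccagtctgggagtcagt
Atp5g1, chr11:96075671-96075881, minus strand: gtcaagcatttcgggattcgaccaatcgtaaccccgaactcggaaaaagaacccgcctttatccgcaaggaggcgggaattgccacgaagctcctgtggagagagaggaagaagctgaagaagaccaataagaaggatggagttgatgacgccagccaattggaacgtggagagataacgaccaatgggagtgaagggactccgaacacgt
In Atp5l the capitals are the NRF1 core, whose first base is 241 bases before the start, and an ETS core on the other strand at 212. In Cox6a1 they are an NRF1 core at 161, another on the other strand at 116, and Sp1 boxes on the other strand at 139 and 44. A match is a run of letters and not a measured site, and the lack of one says only that these letters are not in the bases shown. The stretches of Cox7a1 and Atp5g1 hold 223 and 211 bases of their windows. Left out are the last 27 and 39 bases before the start and the 50 bases after it.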

How the data were processed

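RNA-seq of 2 libraries, M and MR, was used. Per the labels and the methods, the authors trimmed reads with Trim Galore, aligned them to mm10 (GRCm38) by HISAT2 and applied StringTie with GENCODE vM27; versions are not given in the sources used here. The deposited tables list a coverage signal, an FPKM and a TPM per entry, and the authors scaled TPM so that the assembled loci sum to 1000000, which makes TPM a share of RNA and not an amount. Entries with gene names hold GRCm39 positions, add 87234 (M) and 129264 (MR) TPM beyond that sum, and were not used.

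A locus counted for the vM21 gene that shared the most exon bases with it (50 or more) on a strand that fits, and a gene inside the locus of another gene got no value. TPM was summed per gene, and genes with at least 1 TPM in 1 library were compared by log2 ratio with a pseudocount of 1. Read pairs were approximated as FPKM times the shortest coding transcript times aligned Gb over 300 bases, for 95% Wilson intervals. Aligned Gb came from the commonest quotient of coverage and FPKM, held by 32.1% (M) and 35.0% (MR) of loci with FPKM above 5. Lists of fewer than 6 genes have their full range as interval. Pseudogenes were matched with blastn 2.17.0. Python 3.11.15, numpy 2.4.6, pandas 2.3.3, scipy 1.17.1, biopython 1.88 and matplotlib 3.10.9 were used, and the assignment was tested on simulated data. Each simulated locus was made from the span of 1 annotated gene, so that merged or overlong loci were not covered. Printed promoter stretches hold at least 100 bases and no vM21 exon. The members, lists and motifs were chosen with earlier results of these data known. Every member is accounted for, and other genes are named as the ends of their list or for their role.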

Additional observations from a re-analysis of the deposited data

Results flagged for a closer look

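Inside the span of member genes lay 5 assembled loci that matched too few exon bases of any gene to be given to one, and 4 of them were higher in MR, the culture with RANKL. In Sdhc, a locus on the minus strand (chr1, 171132660 to 171133067, mm10), the strand of the gene, had 0.714 TPM in M and 4.66 TPM in MR. A locus on the opposite strand of Sdhc (171135620 to 171135710) had 0.752 and 4.80 TPM. In Uqcrb a locus (chr13, 66904398 to 66904550) had 0.467 and 1.47 TPM, and in Atp5f1 a locus (chr3, 105950280 to 105950747) had 0.0254 and 1.29 TPM. The other locus, in Sdhb (chr4, 140965490 to 140966764, on the strand opposite to the gene), had 0.793 and 0.661 TPM. The 4 loci higher in MR are at most 468 bases long and low beside their genes, and they were left out of the values of Sdhc, Uqcrb and Atp5f1, as was the other of Sdhb. What they are was not tested.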

How the results depend on the processing

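Of 79 values recomputed under other settings, 74 kept their direction and stayed within their interval or within 1.5 times the count. Of the rest, 5 moved and 0 changed direction. Some of the 74 could not have differed from the main values. Adding pseudogenes named after a member added nothing, since 0 of these 9 pseudogenes had a locus. Requiring that each library hold a separate locus for the gene kept the same 43 members, with the same values. The values from these settings thus say nothing about stability. The median log2 ratio of the members was 1.18 under median-of-ratios scaling, which shifted the log2 ratios by 0.18 and put the median of all genes at 0.03, and 1.11 after subtraction of the median of genes of similar transcript length. Complex III had a median of 1.50 after that subtraction. With a log2 threshold of 2, 5 of the 43 members with a value were above it, against 6.95% of all genes tested. Without the mitochondrial genes and the 20 most abundant genes, 1 member was below -1, against 15.1% of all genes. This member was Cox4i2 at -1.13, which then passed the minimum of 1 TPM. Under median-of-ratios scaling 31 members had a log2 ratio above 1, against 17.8% of all genes. After the length adjustment 26 members did, and the share of all genes was not recomputed for it. At least 41 members were higher in MR under every setting run. The scaling by coverage per aligned Gb and the addition of pseudogenes by sequence were chosen after seeing the data. By coverage per aligned Gb, Atp5g3 went from 2.17 to 3.07 and Atp5mpl from 1.03 to 1.71 on the log2 scale, and Atp5g2 from 1.30 to 0.86, below 1. Cyc1 went from 2.65 to 2.24, Uqcr11 from 1.77 to 2.23 and Cox4i1 from 1.36 to 1.80. For each of these genes the quotient of listed coverage and FPKM was below the commonest one in at least 1 library. These ratios thus do not compare like read depths. The cause was not tested. No library could be left out, and no paired analysis was possible because there is 1 library per culture. Members with few reads, Cox6b2, Atp5s and Cox7a1, are limited by depth.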

Other observations

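The rule by name misses some genes now counted with these complexes, and 3 of them were looked up after the other values were known. Ndufa4, named after complex I and now placed with complex IV, had 276 TPM in M and 801 TPM in MR, a log2 ratio of 1.53. Usmg5, a small membrane subunit of ATP synthase, had 295 and 647 TPM, a log2 ratio of 1.13. Atpif1, which blocks the reverse reaction of ATP synthase, had 265 and 405 TPM, a log2 ratio of 0.61, below that of every ATP synthase member with a value.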
